A study of Mus musculus with 11 samples.

Results

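Gene by gene, mouse medulloblastomas driven by MYC, Gfi1 and the Notch1 intracellular domain (N1ICD) were compared with medulloblastomas driven by MYC and Gfi1 alone. The comparison used 5 of the 11 libraries of the series, selected by their labels: 3 N1ICD libraries and 2 MYC/Gfi1 libraries. All 5 were made from fresh frozen cerebellar tumours of CD1 mice, and both groups carried MYC and Gfi1. In the N1ICD tumours the 3 oncogenes were expressed conditionally in Math1-positive cells, while expression in the MYC/Gfi1 tumours is labelled constitutive. The presence of N1ICD and the kind of cell that expressed the oncogenes therefore changed together, and their effects cannot be told apart. The sources used here do not state the age of the animals or how many tumours went into a library. The remaining 6 libraries, 3 from constitutive MYC/Otx2 tumours and 3 from tumours with MYC and Gfi1 in S100b-positive cells, entered the fit to estimate the spread between libraries.

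Notch receptors are cut after ligand binding, and the released intracellular domain enters the nucleus, where it joins the DNA-binding protein RBPJ and switches on genes such as those of the Hes and Hey repressor families. N1ICD is that released part, so it signals without a ligand. Math1, the product of Atoh1, marks the progenitors of cerebellar granule neurons, and Notch signalling is known to hold neural progenitors undifferentiated and to maintain the pericytes and smooth muscle of vessel walls. MYC with Gfi1 is used to model Group 3 medulloblastoma, a subgroup of this childhood cerebellar tumour with high MYC.

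The MYC/Gfi1 libraries held 7.53 and 6.53 M counts and the N1ICD libraries held 2.58 to 3.38 M counts, with 16134 to 17195 genes detected in each. Levels are given as CPM, counts scaled to a common library total. Mitochondrially encoded genes took 6.00% and 5.96% of counts in the MYC/Gfi1 libraries and 23.2% to 27.6% in the N1ICD libraries. The column names of the groups follow different styles, so the group and the set of libraries cannot be told apart. Spearman correlations across 15228 genes were 0.816 between the MYC/Gfi1 libraries, 0.808 to 0.907 among the N1ICD libraries and 0.70 to 0.797 between groups. MYC/Gfi1 replicate 2 stood apart in cerebellar neuron genes: Cbln3, a mature granule neuron gene, was at 1159 CPM there and at 2.10 CPM in replicate 1. N1ICD replicate 1 stood apart in some astroglial genes: Slc1a3, a glial glutamate transporter, was at 1402 CPM there against 4.18 and 26.0 CPM in replicates 2 and 3. Aqp4 was also highest there, at 236 CPM, but Gfap, another astroglial marker, was lowest there, at 10.3 CPM. Of the choroid plexus markers, Ttr was highest there, at 4672 CPM. Kl had 3 counts there and 8 in MYC/Gfi1 replicate 1, and Folr1 was at 6.43 CPM against 20.9 CPM in MYC/Gfi1 replicate 2. Replicate 2 of each group carried counts of the Y-linked gene Ddx3y (604 and 317), and the other 3 libraries had none, so each group held at least 2 animals. Where a named call was lost with 1 of the 5 libraries left out, at least 1 such library is given in the same paragraph.

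The genes in the labels were read first. Myc, the oncogene both groups share, was at 27.5 and 11.04 CPM in the MYC/Gfi1 libraries and at 0.429, 1.05 and 2.44 CPM in the N1ICD libraries, so the groups did not overlap (log2 fold change -3.87 ± 0.77 SE, adjusted p = 0.0154); without N1ICD replicate 2 Myc was not called. Gfi1, a transcriptional repressor, was at 3.61 and 3.05 CPM against 4.72, 0.697 and 4.87 CPM, and its groups overlapped (log2 fold change 0.03, adjusted p = 0.992). Notch1 had 2 and 0 counts in the MYC/Gfi1 libraries and 4, 1 and 6 counts in the N1ICD libraries. These are 3′ tags, so a transgene adds to the mouse gene only if they share their 3′ end, and low counts of Notch1 do not check the label. Atoh1 had 8 and 0 counts against 0 in each N1ICD library. A count of 0 in a library allows up to 3 counts, so the marker of the labelled cells was not detectable at this depth in the N1ICD tumours.

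Of the genes tested, 1754 (11.5%) were called at an adjusted p of 0.05 by edgeR's quasi-likelihood test, 833 (5.47%) higher and 921 (6.05%) lower in the N1ICD tumours. The median log2 fold change over all genes tested was -0.01. When each of the 5 libraries was left out in turn, 391 genes (2.57%) were called in every fit, of which 204 (1.34%) were higher and 187 (1.23%) lower. No overlap between the libraries of one group and the other was seen for 2771 genes (18.2%) that were higher and 3018 genes (19.8%) that were lower. Without MYC/Gfi1 replicate 2 the calls fell to 343 higher and 462 lower, without N1ICD replicate 2 to 429 and 368, and without N1ICD replicate 3 to 491 and 392. With the 5 libraries of the comparison fitted alone, the test called 15 genes. The counts of the gene lists below stand against the shares of all genes called higher and lower, 5.47% and 6.05%.

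**Figure D1:**
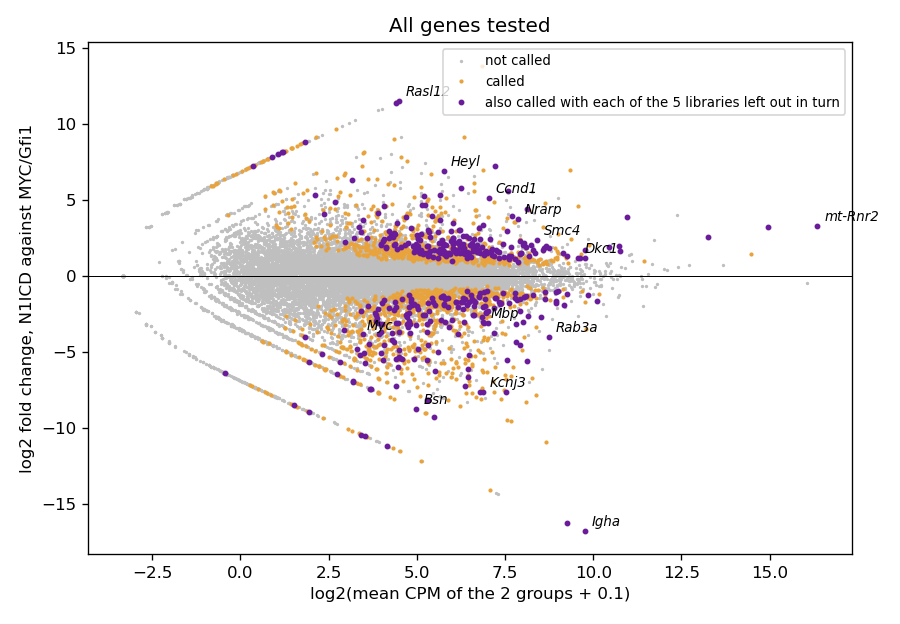
Log2 fold change of each gene tested (N1ICD against MYC/Gfi1, vertical axis) against its level, the log2 of the mean CPM of the groups plus 0.1 (horizontal axis). Grey points were not called, orange points were called at an adjusted p of 0.05, and the 391 purple points were also called with each library left out; diagonal bands are genes with 0 counts in all libraries of a group.

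Of 16 genes known as targets of Notch, 6 (37.5%) rose in the N1ICD tumours and 1, Myc, fell, with a median log2 fold change of 2.11. With 1 library left out, 4 to 6 rose. Heyl, a Hey family repressor on chromosome 4 (123233556 to 123249875, mm10), was at 1.28 and 0.436 CPM in the MYC/Gfi1 libraries and at 82.7, 145 and 99.0 CPM in the N1ICD libraries (log2 fold change 6.93 ± 0.82 SE, adjusted p = 0.00294). Hey2, its paralog on chromosome 10 (30832359 to 30842801), was at 0.933 and 0.581 CPM against 106, 73.6 and 70.2 CPM (log2 fold change 6.73 ± 1.20 SE, adjusted p = 0.0113). Every N1ICD library lay far above both MYC/Gfi1 libraries for each of these repressors. Nrarp, a feedback inhibitor of Notch signalling on chromosome 2 (25180758 to 25183339), was at 56.8 and 6.97 CPM against 354, 463 and 477 CPM (log2 fold change 3.75 ± 0.84 SE, adjusted p = 0.0223). Ccnd1, the gene of cyclin D1, was at 10.02 and 4.65 CPM against 293, 163 and 313 CPM (log2 fold change 5.12 ± 0.68 SE, adjusted p = 0.00477). Heyl, Nrarp and Ccnd1 were called with each library left out; Hey2 had an adjusted p of 0.0539 without MYC/Gfi1 replicate 2.

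The promoters of called Notch target genes were searched for TGGGAA, the core of the RBPJ binding site, which reads TTCCCA on the opposite strand. The windows are the 250 bases before the RefSeq transcript start (GRCm38.p6), printed 5′ to 3′ on the strand of the gene with the motif in capitals, and 4 of them, of 4 target genes that rose, are shown. RefSeq windows of these genes number 5, since Cdkn1a, the gene of the inhibitor p21, has a pair of starts. The other called targets, Heyl, Ccnd1 and Myc, had no window in the RefSeq set used and were not searched. Hey2 lies at chr10:30842784-30843033 on the minus strand, Nrarp at chr2:25180508-25180757 on the plus strand, Notch3 at chr17:32166891-32167140 on the minus strand and the printed window of Cdkn1a at chr17:29093519-29093768 on the plus strand.
Hey2: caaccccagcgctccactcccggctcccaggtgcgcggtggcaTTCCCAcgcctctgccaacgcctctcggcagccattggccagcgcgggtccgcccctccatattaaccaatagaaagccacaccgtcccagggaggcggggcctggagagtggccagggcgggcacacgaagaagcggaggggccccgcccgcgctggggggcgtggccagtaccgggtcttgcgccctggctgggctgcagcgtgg
Nrarp: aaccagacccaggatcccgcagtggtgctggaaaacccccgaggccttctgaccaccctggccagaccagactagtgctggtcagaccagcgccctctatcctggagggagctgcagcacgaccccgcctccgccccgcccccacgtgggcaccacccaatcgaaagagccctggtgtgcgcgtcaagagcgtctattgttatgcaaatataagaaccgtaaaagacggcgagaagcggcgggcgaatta
Notch3: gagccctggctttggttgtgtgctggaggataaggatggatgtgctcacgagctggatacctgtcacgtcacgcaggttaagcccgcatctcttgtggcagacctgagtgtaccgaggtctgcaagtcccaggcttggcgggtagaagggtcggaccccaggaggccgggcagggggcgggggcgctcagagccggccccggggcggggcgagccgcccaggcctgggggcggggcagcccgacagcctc
Cdkn1a: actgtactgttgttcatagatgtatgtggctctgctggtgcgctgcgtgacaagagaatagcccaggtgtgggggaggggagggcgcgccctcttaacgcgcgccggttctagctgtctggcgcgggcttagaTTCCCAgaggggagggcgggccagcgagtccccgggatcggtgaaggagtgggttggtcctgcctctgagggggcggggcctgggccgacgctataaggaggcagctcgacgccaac
The Hey2 window holds 1 match, which begins at position -207 from the transcript start, and the printed Cdkn1a window holds 1, at -117. The windows of Nrarp and Notch3 and the other window of Cdkn1a hold 0, so 2 of the 5 windows have a match. Windows with a match made up 21.6% of all RefSeq promoters of this length (7094 of 32851), 21.8% of those of genes called higher and 18.9% of those of genes called lower. The motif is 6 letters long, so such matches are common, and a match or its absence in these windows says nothing of binding.

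Other Notch targets were not called, and Hes5, Fabp7 and Sox9 differed widely between the N1ICD libraries. Hes5, a Hes family repressor of neural progenitors, was at 18.1 and 7.84 CPM in the MYC/Gfi1 libraries and at 1399, 3.14 and 386 CPM in the N1ICD libraries. Its level in N1ICD replicate 2 was below both MYC/Gfi1 libraries, and it was not called (adjusted p = 0.0659). Fabp7, a fatty acid binding protein of radial glia, followed the same order at 1058, 4.18 and 86.8 CPM, as did Sox9, a glial transcription factor, at 649, 2.09 and 16.6 CPM. Both also belong to the astroglial list, whose members summed to 16349 CPM in the first N1ICD replicate, to 2066 CPM in the second and to 2043 CPM in the third, and the part of astroglia in these levels was not tested. Chosen after their values were seen, Hes1 was at 3.73 and 6.54 CPM against 18.0, 17.1 and 27.2 CPM (adjusted p = 0.0740), and Hey1 at 9.32 and 37.9 CPM against 97.3, 54.0 and 87.6 CPM (adjusted p = 0.138). For both the groups did not overlap, and neither was called.

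Of 30 genes of the receptors, ligands and machinery of the pathway, 2 (6.67%) rose and 2 (6.67%) fell, with a median log2 fold change of -0.09, near the shares and the median of all genes. Jag1, a ligand, was at 4.43 and 3.34 CPM in the MYC/Gfi1 libraries and at 47.2, 375 and 160 CPM in the N1ICD libraries (log2 fold change 5.63 ± 0.92 SE, adjusted p = 0.00846). Notch3, the receptor of vessel wall cells, was at 1.98 and 2.61 CPM against 11.2, 122 and 97.8 CPM (log2 fold change 5.06 ± 1.02 SE, adjusted p = 0.0167). Both were high in N1ICD replicates 2 and 3 and lower in replicate 1, and neither was called without MYC/Gfi1 replicate 2 (adjusted p = 0.0516 and 0.0755); Notch3 was also not called without replicate 1. Rfng, a glycosyltransferase that modifies Notch receptors, was at 43.7 and 45.3 CPM against 6.00, 6.97 and 10.1 CPM (log2 fold change -2.53 ± 0.35 SE, adjusted p = 0.00561). Numbl, a relative of the Notch antagonist Numb, was at 69.4 and 18.0 CPM against 6.00, 2.79 and 0.812 CPM (log2 fold change -3.77 ± 0.83 SE, adjusted p = 0.0212). Rfng was the member of this list that was called with each library left out, and Numbl was not called without MYC/Gfi1 replicate 1, N1ICD replicate 2 or N1ICD replicate 3. Mib1, which ubiquitinates Notch ligands, and Adam17, a protease that can shed Notch, had adjusted p-values of 0.313 and 0.391. Rbpj, chosen after its values were seen, was at 37.0 and 23.2 CPM against 31.3, 29.3 and 27.6 CPM, and its groups overlapped.

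**Figure D2:**
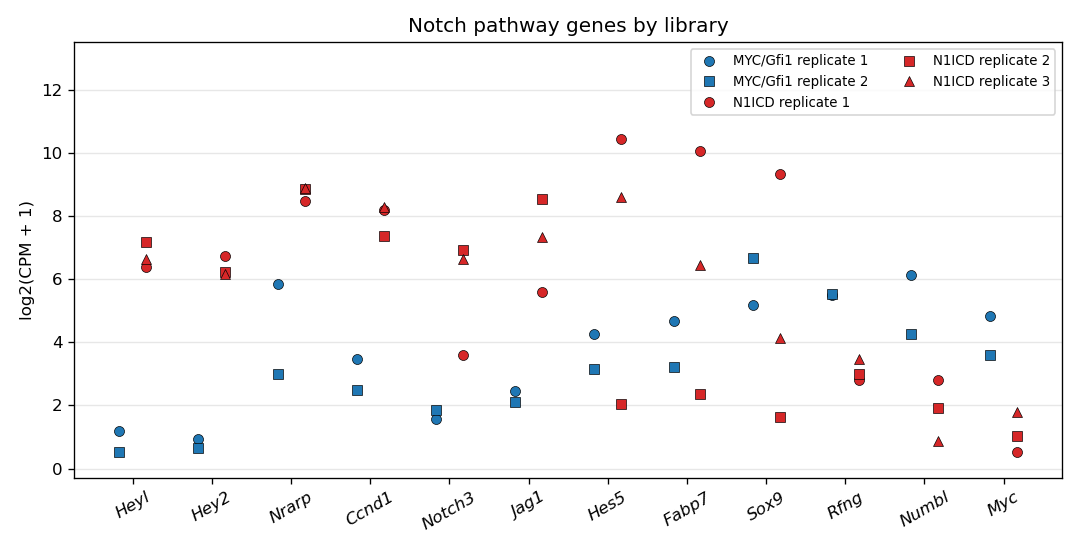
Log2 of CPM plus 1 (vertical axis) for 12 genes of the Notch pathway, with 1 point per library: blue for MYC/Gfi1, red for N1ICD, and the shape giving the replicate number. Heyl, Hey2, Nrarp and Ccnd1 were high in all 3 N1ICD libraries, while Hes5, Fabp7 and Sox9 were highest in N1ICD replicate 1 and Notch3 and Jag1 in replicates 2 and 3.

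Vessel wall genes were the list with the largest positive median among those described, 4.40 on the log2 scale: of 24 pericyte and smooth muscle genes tested, 10 (41.7%) rose and 0 fell, and Heyl and Notch3 are among them. Their summed level was 236 and 261 CPM in the MYC/Gfi1 libraries and 573, 10473 and 3941 CPM in the N1ICD libraries, so every N1ICD library was higher and replicate 1 was much closer to the MYC/Gfi1 tumours. In bulk RNA, more cells of a type and more RNA per cell cannot be told apart. Rasl12, a small GTPase gene, had no counts in the MYC/Gfi1 libraries and was at 14.6, 69.7 and 51.1 CPM in the N1ICD libraries, at least 242-fold higher when the empty group is set to 3 counts in all (adjusted p = 0.00639). Kcnj8, a potassium channel subunit of pericytes, was at 0.233 and 0.436 CPM against 5.57, 19.2 and 60.9 CPM (log2 fold change 6.37 ± 1.37 SE, adjusted p = 0.0200). Tagln, an actin-binding protein of smooth muscle, was at 1.63 and 1.02 CPM against 30.0, 21.6 and 48.7 CPM (log2 fold change 4.63 ± 1.00 SE, adjusted p = 0.0201). Some smooth muscle genes were not called, and the N1ICD libraries differed among themselves: Myh11, smooth muscle myosin, was at 0, 258 and 47.5 CPM, and Mylk, myosin light chain kinase, at 25.7, 2325 and 616 CPM. Without N1ICD replicate 1, 15 members were called; without N1ICD replicate 2 it was 5, without N1ICD replicate 3 it was 4, without MYC/Gfi1 replicate 1 it was 3 and without MYC/Gfi1 replicate 2 it was 4. Heyl and Rasl12 were called in each of these fits. Kcnj8 and Tagln were not called without MYC/Gfi1 replicate 2 (adjusted p = 0.0828 and 0.0891), nor was Kcnj8 without MYC/Gfi1 replicate 1 or Tagln without N1ICD replicate 3. In N1ICD replicate 1, where the list summed to 573 CPM, the Notch targets Heyl, Hey2 and Nrarp were at 82.7, 106 and 354 CPM. The part of vessel wall cells in the levels of Notch target genes was not tested.

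Several genes outside the list that were called with each library left out are also known from vessel walls or their basement membrane. Gjc1, the gap junction protein connexin 45, was at 0.816 and 3.05 CPM against 121, 460 and 298 CPM (log2 fold change 7.26 ± 1.17 SE, adjusted p = 0.00822). Foxs1, a forkhead factor of pericytes, was at 0.699 and 3.05 CPM against 118, 60.3 and 35.3 CPM (log2 fold change 5.26 ± 0.92 SE, adjusted p = 0.0104). Ano1, a calcium-activated chloride channel, was at 4.90 and 0.436 CPM against 175, 184 and 90.1 CPM (log2 fold change 5.78 ± 1.06 SE, adjusted p = 0.0125). Unlike Notch3 and Myh11, these 3 genes were high in N1ICD replicate 1 as well. Of 32 collagen and fibroblast genes, 2 (6.25%, near the 5.47% of all genes) rose and 0 fell with a median of 1.43: Lamc1, a laminin chain, at 3.61 and 2.03 CPM against 44.6, 131 and 39.0 CPM (adjusted p = 0.00561), and Lama4, at 2.91 and 6.68 CPM against 33.01, 41.8 and 30.4 CPM (adjusted p = 0.0183), which was not called without MYC/Gfi1 replicate 1. Of 26 endothelial genes, 2 (7.69%) rose and 0 fell with a median of 0.42. These 2 were high in different libraries, and neither was called without either MYC/Gfi1 library. Tal1, a factor of blood and endothelial lineages, was at 3.86, 193 and 289 CPM in the N1ICD libraries, and Sox7 was at 60.9, 4.18 and 1.62 CPM. The endothelial markers Cldn5, Pecam1 and Cdh5 were not called, and Cldn5 was at 1.72 CPM or less in the 5 libraries.

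**Figure D3:**
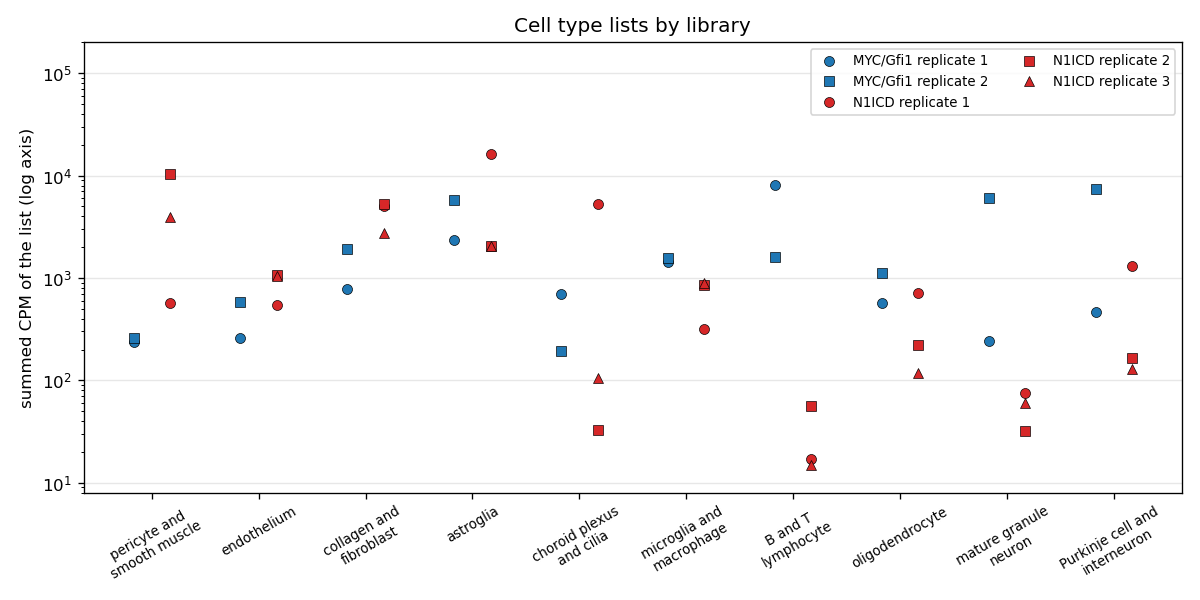
Summed CPM of 10 cell type lists (log axis) in each of the 5 libraries; colours mark the group and shapes the replicate number. N1ICD replicates 2 and 3 are highest for pericyte and smooth muscle genes. N1ICD replicate 1 is highest for the sums of the astroglial list and of the choroid plexus and cilia list. The latter sum is mostly Ttr (4672 of 5249 CPM). MYC/Gfi1 replicate 2 is highest for mature granule neuron genes and for Purkinje and interneuron genes. The lymphocyte list is low in all 3 N1ICD libraries.

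Of 40 genes of G2 and mitosis, 13 (32.5%) rose in the N1ICD tumours, 0 fell and 27 were not called, with a median log2 fold change of 1.16. Smc4, a condensin subunit that compacts chromosomes, was at 125 and 89.8 CPM in the MYC/Gfi1 libraries and at 462, 632 and 615 CPM in the N1ICD libraries (log2 fold change 2.41 ± 0.29 SE, adjusted p = 0.00301). Mki67, the Ki-67 proliferation antigen, was at 57.9 and 26.6 CPM against 239, 277 and 162 CPM (log2 fold change 2.42 ± 0.41 SE, adjusted p = 0.00927). Hmgb2, a chromatin protein of dividing cells, was at 38.2 and 20.3 CPM against 102, 154 and 129 CPM (log2 fold change 2.13 ± 0.30 SE, adjusted p = 0.00561). In these 3 genes the groups did not overlap, and all 3, with Prc1, a spindle midzone protein, were called with each library left out. The most abundant members that were not called included Birc5 and Top2a. Birc5, the gene of survivin, was at 1163 and 969 CPM against 352, 621 and 571 CPM, lower in all 3 N1ICD libraries (adjusted p = 0.0626), and Top2a, topoisomerase II alpha, was at 618 and 424 CPM against 621, 842 and 709 CPM (adjusted p = 0.293). The list summed to 4391 and 2583 CPM in the MYC/Gfi1 libraries. Without MYC/Gfi1 replicate 2, 4 members were called with a median of 0.58, and without replicate 1 it was 18 with a median of 1.79. Without N1ICD replicate 2 or replicate 3, 6 were called.

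Of 40 genes of G1/S and DNA replication, 5 (12.5%) rose and 0 fell, with a median of 0.37. Besides Ccnd1 these were Pola1, Rrm1, Ccne2 and Cdk6. Pola1, the catalytic subunit of DNA polymerase alpha, was at 34.6 and 34.9 CPM against 100, 150 and 122 CPM (log2 fold change 1.84 ± 0.27 SE, adjusted p = 0.00644). Cdk6, a partner of cyclin D1, was at 8.28 and 12.2 CPM against 24.0, 81.2 and 84.0 CPM (log2 fold change 2.63 ± 0.74 SE, adjusted p = 0.0468), while Cdk4, the other partner, was not called (adjusted p = 0.198). Ccnd1 and Pola1 were called with each library left out. Rrm1, Ccne2 and Cdk6 were not called without MYC/Gfi1 replicate 2 (adjusted p = 0.127, 0.151 and 0.136), nor without N1ICD replicate 2 or replicate 3, and Cdk6 was also lost without MYC/Gfi1 replicate 1.

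Genes of cell cycle inhibition and of the p53 response moved in both directions, with 4 of 23 (17.4%) higher and 2 (8.70%) lower and a median of 0.66. Cdkn1a, the inhibitor p21, was at 33.3 and 86.4 CPM against 244, 333 and 252 CPM (log2 fold change 2.21 ± 0.54 SE, adjusted p = 0.0297). Phlda3, a p53 target that restrains Akt, was at 5.71 and 5.96 CPM against 30.0, 41.8 and 30.8 CPM (log2 fold change 2.55 ± 0.42 SE, adjusted p = 0.00846), and Eda2r, another p53 target, was at 6.30 and 5.96 CPM against 22.7, 38.7 and 22.7 CPM (adjusted p = 0.0414). Cdkn2d, a CDK inhibitor of the INK4 family, fell from 32.9 and 27.6 CPM to 7.29, 6.97 and 6.49 CPM (log2 fold change -2.13 ± 0.30 SE, adjusted p = 0.00561). Btg2, an antiproliferative p53 target, was at 215 and 186 CPM against 66.0, 98.0 and 79.5 CPM (adjusted p = 0.0317). Phlda3 and Cdkn2d were called with each library left out. Eda2r and Btg2 were not called without MYC/Gfi1 replicate 2 (adjusted p = 0.146 and 0.0715), and Btg2 was not called in any of the fits that left out a library. Eda2r and Cdkn1a were not called without MYC/Gfi1 replicate 1, N1ICD replicate 2 or N1ICD replicate 3, and without either of these N1ICD libraries 1 member of the list rose and 1 fell.

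Both models carry MYC as an oncogene, and of 13 genes of the MYC network tested 0 rose and 6 (46.2%) fell, with a median of -0.49. Max, the obligate partner of MYC, was at 278 and 145 CPM in the MYC/Gfi1 libraries and at 81.9, 92.0 and 110 CPM in the N1ICD libraries (log2 fold change -1.16 ± 0.26 SE, adjusted p = 0.0230). Mxd1, a Max partner that opposes MYC, was at 44.7 and 44.0 CPM against 7.29, 12.6 and 2.84 CPM (log2 fold change -2.54 ± 0.49 SE, adjusted p = 0.0144). Myc and Mycl (listed as Mycl1) fell as well, and the groups did not overlap for any of these 4. The genes that fell include both the partner of MYC and an antagonist. Members that fell numbered 3 without MYC/Gfi1 replicate 1, with a median of -0.12, also 3 without N1ICD replicate 3, and without N1ICD replicate 2 it was 1, Mxd1, which was called in each of these fits. Of 35 ribosome biogenesis genes, which MYC is known to activate, 8 (22.9%) rose and 0 fell, with a median of 0.75. Nop58, a core protein of small nucleolar ribonucleoproteins, was at 226 and 113 CPM against 453, 678 and 714 CPM (log2 fold change 1.86 ± 0.34 SE, adjusted p = 0.0116). Dkc1, the pseudouridine synthase dyskerin, was at 438 and 483 CPM against 868, 1036 and 1238 CPM (log2 fold change 1.19 ± 0.23 SE, adjusted p = 0.0150). Both were called with each library left out, whereas Ncl and Npm1, the abundant nucleolar proteins, were not called (adjusted p = 0.0982 and 0.462). Without MYC/Gfi1 replicate 2, whose summed level was the lowest of the 5 libraries (5244 CPM against 8282 to 12916 CPM in the others), 2 biogenesis genes were higher and 1 lower; without replicate 1 it was 16 higher, and without N1ICD replicate 2 or replicate 3 it was 2. Of 30 metabolic targets of MYC, 0 rose and 1 (3.33%) fell: Prps1, of nucleotide synthesis, at 508 and 374 CPM against 154, 118 and 218 CPM (adjusted p = 0.0183), which was not called without MYC/Gfi1 replicate 1 or N1ICD replicate 2.

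The corepressor complex that Gfi1 recruits, with the demethylase LSD1 and CoREST, was represented by 15 genes tested, of which 1 (6.67%) rose and 2 (13.3%) fell. Hmg20b, a subunit of the LSD1 complex, was at 17.2 and 24.1 CPM against 83.6, 91.7 and 89.3 CPM (log2 fold change 2.09 ± 0.28 SE, adjusted p = 0.00473). Rcor2, a CoREST protein of neural progenitors, was at 204 and 66.1 CPM against 13.7, 2.79 and 26.0 CPM (log2 fold change -3.26 ± 0.70 SE, adjusted p = 0.0205). Hmg20b was called with each library left out, and Rcor2 was not called without MYC/Gfi1 replicate 1.

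Of 39 genes of synapses and secretion, 0 rose and 17 (43.6%) fell in the N1ICD tumours, with a median of -4.36. Of 32 ion channel genes, 1 rose and 8 (25.0%) fell with a median of -4.10, and of 35 GABA and glutamate receptor genes, 0 rose and 6 (17.1%) fell with a median of -2.95. Without MYC/Gfi1 replicate 2 the counts of genes that fell were 4, 2 and 1 with medians of -1.88, -0.93 and -1.45, without N1ICD replicate 2 they were 6, 2 and 1, and without N1ICD replicate 3 they were 5, 2 and 1. Kcnj3, a G protein-gated potassium channel subunit, was at 170 and 301 CPM in the MYC/Gfi1 libraries and at 0.857, 1.05 and 1.62 CPM in the N1ICD libraries (log2 fold change -7.63 ± 0.50 SE, adjusted p = 0.000375). Bsn, the presynaptic scaffold bassoon, was at 32.8 and 93.8 CPM against 0, 0.349 and 0 CPM (log2 fold change -8.77 ± 1.01 SE, adjusted p = 0.00271). Rab3a, a GTPase of synaptic vesicles, was at 372 and 1250 CPM against 43.7, 49.2 and 59.2 CPM (log2 fold change -4.00 ± 0.61 SE, adjusted p = 0.00695). For these 3 genes both MYC/Gfi1 libraries lay far above every N1ICD library, and they were called with each library left out. So was Nefh, the heavy neurofilament, at 49.5 and 37.6 CPM against 1.72, 0.349 and 1.22 CPM (adjusted p = 0.00561). Nol4, a nucleolar protein gene expressed in brain, was at 23.3 and 19.3 CPM against 0 in each N1ICD library, at least 55.0-fold lower. Prmt8, a brain arginine methyltransferase, was at 64.5 and 116 CPM against 0.429, 0 and 0 CPM (adjusted p = 0.0111). Nell2, a secreted neuronal protein, was at 51.6 and 388 CPM against 2.57, 0 and 0.812 CPM (adjusted p = 0.00639). These last 3 genes were called with each library left out as well.

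Most other neuronal calls were lost without MYC/Gfi1 replicate 2, and many also without N1ICD replicate 2 or replicate 3. Of 18 mature granule neuron genes 9 (50.0%) fell, with a median of -6.59. Without MYC/Gfi1 replicate 2, 0 were called and the median was -2.69; without N1ICD replicate 2 or replicate 3, 0 were called and the medians were -6.40 and -6.47. Their summed level was 244 and 5992 CPM in the MYC/Gfi1 libraries and 32.1 to 75.5 CPM in the N1ICD libraries. Cbln1, a secreted organiser of parallel fibre synapses, was at 30.5 and 427 CPM against 3.43, 0 and 0.812 CPM (adjusted p = 0.0338), and without replicate 2 its adjusted p was 0.174. Of 20 Purkinje and interneuron genes 4 (20.0%) fell, and 1, Nefh, was called without that library. Calb1, the Purkinje marker calbindin, was at 5.71 and 440 CPM against 1.72, 0 and 0.812 CPM, and its adjusted p went from 0.0385 to 0.378. Car8, another Purkinje marker, was at 2.10 and 402 CPM against 2.14, 0.349 and 0 CPM. Pcp2, also a Purkinje marker, had 0 and 1 counts in the MYC/Gfi1 libraries. Genes of differentiating granule neurons were lower by a median of -4.52, or -3.20 without replicate 2, and 4 of 25 (16.0%) fell. Elavl2, a neuronal RNA-binding protein, was at 295 and 157 CPM against 2.57, 1.74 and 4.87 CPM, and was called with replicate 2 (adjusted p = 0.0164) and without it (adjusted p = 0.0371), though not without N1ICD replicate 2. Neurod1, a factor of granule neuron differentiation, was at 83.0 and 482 CPM against 6.43, 0.349 and 0.406 CPM (adjusted p = 0.0299, or 0.114 without replicate 2). Of 19 granule progenitor genes 0 were called, and the median changed sign with that library, from -0.71 to 0.58. Zic1, a factor of the granule lineage, was at 22.9 and 1626 CPM against 66.9, 7.67 and 9.33 CPM, and the groups overlapped.

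**Figure D4:**
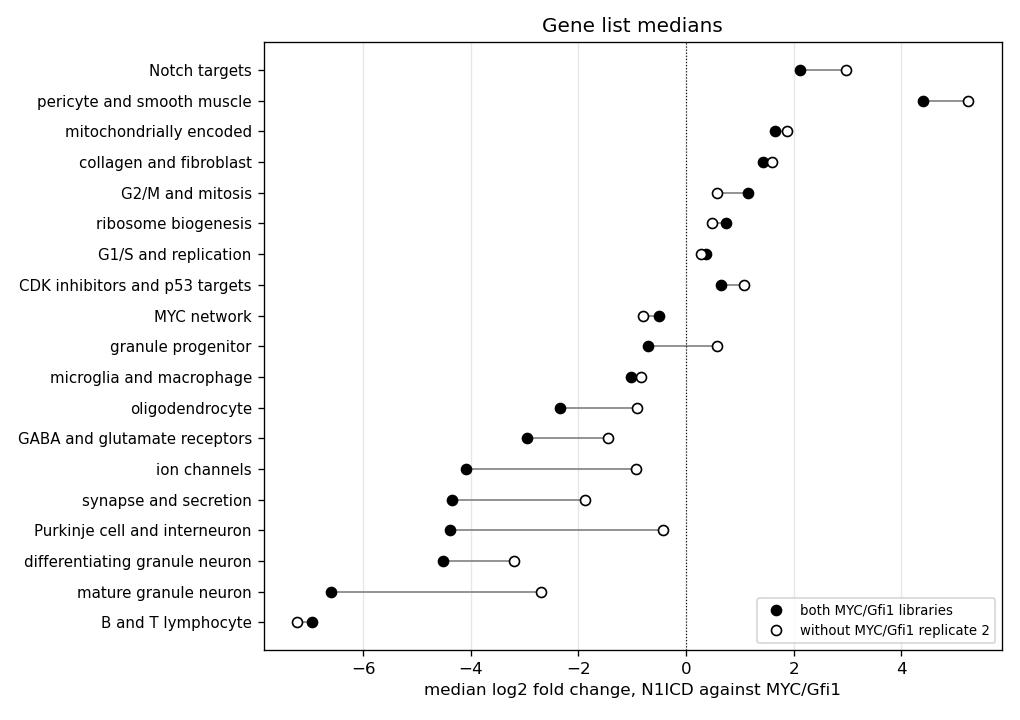
Median log2 fold change of 19 gene lists (N1ICD against MYC/Gfi1), with both MYC/Gfi1 libraries (filled) and without MYC/Gfi1 replicate 2 (open). The neuronal lists moved toward 0 without that library, the granule progenitor list crossed 0, and the lists of Notch targets, vessel wall genes and lymphocyte genes moved away from 0.

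Of 26 stem and progenitor genes 1 (3.85%) rose and 4 (15.4%) fell, with a median of 0.51. With MYC/Gfi1 replicate 2 left out, 0 rose and 1, Hes6, fell with a median of 0.15, and the median was -0.13 without N1ICD replicate 1. Hes6, a Hes family member that promotes neuronal differentiation and opposes Hes1, was at 251 and 169 CPM against 30.4, 16.7 and 30.8 CPM (log2 fold change -3.02 ± 0.34 SE, adjusted p = 0.00263), and was called with each library left out. Sox3, a factor of neural progenitors, was at 176 and 73.4 CPM against 4.72, 0 and 0 CPM (adjusted p = 0.0416), and Lin28a, an RNA-binding protein of early progenitors, was at 49.0 and 102 CPM against 0, 0.349 and 0 CPM (adjusted p = 0.0264). Sox6 was higher, at 2.91 and 3.34 CPM against 72.9, 57.2 and 10.1 CPM (adjusted p = 0.0156). Sox3, Lin28a and Sox6 were not called without MYC/Gfi1 replicate 2 (adjusted p = 0.0696, 0.0793 and 0.0678), and Sox3 and Lin28a were also lost in all but 1 of the other fits that left out a library. Sox2 was not called, with 22.3 and 38.5 CPM against 247, 12.2 and 77.9 CPM. Among 29 genes of Polycomb and DNA methylation, 2 (6.90%) rose and 1 (3.45%) fell with a median of 0.07, near the shares and the median of all genes. Ezh2, the Polycomb methyltransferase, was at 78.2 and 72.3 CPM against 286, 185 and 235 CPM (log2 fold change 1.64 ± 0.28 SE, adjusted p = 0.00972), and Mtf2, a Polycomb cofactor, was at 50.0 and 54.2 CPM against 135, 113 and 110 CPM (adjusted p = 0.0153). Both were called with each library left out. Of 18 Group 3 and photoreceptor genes 0 rose and 1 (5.56%), Neurod1, fell. Without N1ICD replicate 2 or replicate 3, 0 of these genes fell.

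Plasma cell genes were present in both MYC/Gfi1 libraries and nearly absent from the N1ICD libraries. Of 20 lymphocyte genes tested, 0 rose and 7 (35.0%) fell with a median of -6.95. The count was again 7 without MYC/Gfi1 replicate 2, and with 1 of the other libraries left out 3 to 5 fell, the fewest without N1ICD replicate 3. The list summed to 8044 and 1605 CPM in the MYC/Gfi1 libraries and to 17.2, 55.8 and 15.0 CPM in the N1ICD libraries. Igha, the heavy chain of immunoglobulin A, was at 2873 and 587 CPM against 0 in each N1ICD library, at least 4739-fold lower by the same floor (adjusted p = 0.00864). Mzb1, a chaperone of antibody-secreting cells, was at 100 and 55.9 CPM against 0, 0.349 and 0.406 CPM (log2 fold change -8.15, adjusted p = 0.0126). Pou2af1, a B cell coactivator, was at 26.6 and 14.7 CPM against 0.429, 0 and 0 CPM (adjusted p = 0.0213). Igha and Mzb1 were called with each library left out, and Pou2af1 was not called without N1ICD replicate 2 or replicate 3. Igha was at 1.29, 2.91 and 27.8 CPM in the S100b-cell tumours and at 0.374 CPM or less in the MYC/Otx2 tumours, so both MYC/Gfi1 libraries were above the other 9. Of 26 microglia and macrophage genes 0 rose and 4 (15.4%) fell, with a median of -1.02. The complement genes C1qc (80.3 and 54.6 CPM against 9.86, 14.3 and 17.0 CPM) and C1qa (145 and 244 CPM against 29.6, 39.7 and 32.9 CPM) were among them, with adjusted p-values of 0.00968 and 0.0205. C1qc was called with each library left out, and was the 1 member called without MYC/Gfi1 replicate 2, N1ICD replicate 2 or N1ICD replicate 3. No gene of 32 in the list of antigen presentation and interferon response was called, and the list's summed level was 2996 CPM in N1ICD replicate 2 against 440 and 288 CPM in replicates 1 and 3.

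Of 18 oligodendrocyte and myelin genes 5 (27.8%) fell and 1 rose, with a median of -2.35. With MYC/Gfi1 replicate 2 left out, 1 fell and 0 rose with a median of -0.92; without N1ICD replicate 2, 2 fell, and without N1ICD replicate 3, 1 fell. Mbp, myelin basic protein, was at 186 and 247 CPM against 18.9, 33.1 and 22.7 CPM (log2 fold change -3.11 ± 0.36 SE, adjusted p = 0.00279) and was called with each library left out. Mobp, Cnp, Cldn11 and Trf were called with both MYC/Gfi1 libraries and not without replicate 2 (adjusted p = 0.242, 0.404, 0.156 and 0.173). Of 27 astroglial genes, Vim, the intermediate filament vimentin, rose (49.3 and 17.6 CPM against 208, 304 and 694 CPM, adjusted p = 0.0187), and Slc1a2, a glutamate transporter, fell (73.6 and 181 CPM against 4.29, 9.76 and 14.6 CPM, adjusted p = 0.0407). Neither was called without MYC/Gfi1 replicate 2 (adjusted p = 0.0924 and 0.156), and Slc1a2 was also lost without each N1ICD library. Apoe, a lipoprotein of astroglia and macrophages, was at 8390 CPM in N1ICD replicate 1 and at 205 and 309 CPM in replicates 2 and 3, below the 924 and 1394 CPM of the MYC/Gfi1 libraries.

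Of 9 mitochondrially encoded genes tested 6 (66.7%) rose, with a median of 1.65, and none of the 9 overlapped between groups; 4 to 6 rose with 1 library left out. The ribosomal RNA mt-Rnr2 took 14092 and 17346 CPM in the MYC/Gfi1 libraries and 139224, 181517 and 133945 CPM in the N1ICD libraries (log2 fold change 3.27 ± 0.24 SE, adjusted p = 0.000509). The messenger RNAs mt-Nd2 and mt-Nd5 also rose (log2 fold changes 2.55 and 1.65, adjusted p = 0.00259 and 0.00947). The messenger RNAs mt-Nd1, mt-Cytb and mt-Co1 were not called (log2 fold changes 0.70, 0.75 and 0.67). Of 32 nuclear genes of the respiratory chain 0 were called. In the S100b-cell libraries mitochondrially encoded genes took 14.7% to 18.5% of counts. Against those tumours mt-Rnr2 was higher in N1ICD (log2 fold change 1.88, adjusted p = 0.00347). There mt-Nd2 and mt-Nd5 were not called (log2 fold changes 0.06 and -0.10, adjusted p = 0.919 and 0.863). The mitochondrial share moved with the group and the library set, and its part in the other results was not tested beyond leaving these genes out, which gave 1668 calls. Of 36 ribosomal protein genes 3 (8.33%) rose and 0 fell, with a median of 0.11. The median changed sign with 1 library: without MYC/Gfi1 replicate 2, 2 rose and 4 fell with a median of -0.45, and without replicate 1, 12 rose with a median of 0.64. Their counts are uncertain because processed pseudogenes share their reads.

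Some of the genes described above were set beside the other models, with the N1ICD libraries shared by all 3 comparisons. The test called 3315 genes (21.8%) against the MYC/Otx2 tumours and 185 genes (1.21%) against the S100b-cell tumours. Heyl differed by 7.34 on the log2 scale from the MYC/Otx2 tumours (adjusted p = 0.000538) and by 5.11 from the S100b-cell tumours (adjusted p = 0.00880). Hey2 differed by 7.14 and 7.83 (adjusted p = 0.00213 and 0.0151), Nrarp by 5.83 and 4.64 (adjusted p = 0.00170 and 0.0227) and Gjc1 by 8.02 and 6.89 (adjusted p = 0.00134 and 0.0166). Hes6 differed by -3.16 and -2.71 (adjusted p = 0.000641 and 0.00880). Some genes were not called against both. Smc4 differed by 1.85 from the MYC/Otx2 tumours (adjusted p = 0.00148) and by 0.30 from the S100b-cell tumours (adjusted p = 0.533), whose libraries were at 381 to 584 CPM. Dkc1, Nop58, Hmgb2, Pola1 and Ezh2 were also not called against the S100b-cell tumours (adjusted p = 0.241 to 0.859). Their differences were -0.47, -0.28, -0.18, -0.11 and 0.10. Ccnd1 and Hmg20b were called against these tumours, by 2.85 and 1.22 (adjusted p = 0.0331 and 0.0392). Dmrtc2, a doublesex-related gene, was at 45.7 and 25.7 CPM in the MYC/Gfi1 libraries and had no counts in the N1ICD or the MYC/Otx2 libraries. In the S100b-cell libraries it was at 0.906, 8.02 and 8.45 CPM, and it was not called between N1ICD and those tumours (adjusted p = 0.102).

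**Figure D5:**
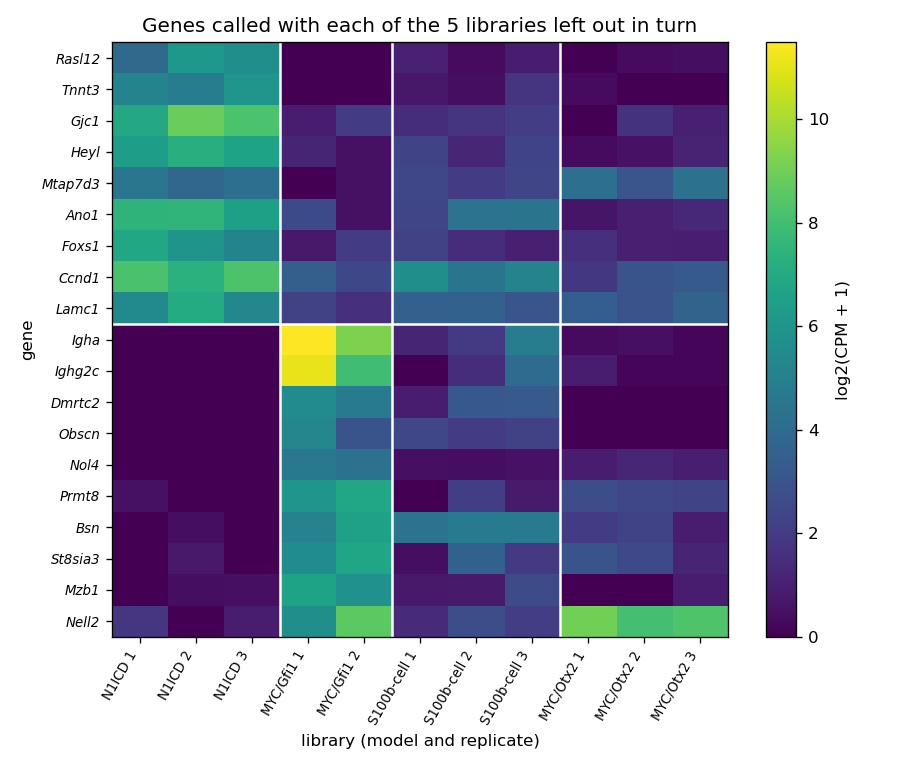
Log2 of CPM plus 1 (colour) in the 11 libraries (columns, by model) for 9 genes that rose and 10 that fell most among those called with each of the 5 libraries left out (rows). The rises are high in the N1ICD columns, with Mtap7d3 also high in MYC/Otx2. The falls are high in the MYC/Gfi1 columns, with Nell2 also high in MYC/Otx2. Bsn is also present in the S100b-cell columns, at 19.9, 25.5 and 24.7 CPM.

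Called genes were spread over the genome. Between 9.7% and 13.9% of the genes tested were called on each of chromosomes 1 to 19 and X, near the 11.5% over all genes, and 6 of the 12 genes tested on the mitochondrial genome were called.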

How the data were processed

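Libraries were made from TRIzol-extracted RNA with the forward QuantSeq kit, which reads 3′ ends, and carried unique molecular identifiers, per the labels' protocols. STAR 2.4.1d, HTSeq 0.6.1 and the build mm10 are named, per the submitters' processing notes. How identifiers were treated, the strand setting and the annotation release are not stated there or elsewhere in the sources used here, so values of antisense, overlapping and paralogous genes are uncertain. The deposited table holds raw counts per gene symbol, with no normalization by the authors, and 0 columns were without a sample in the labels. Separate animals are not stated for the libraries of a group, so p-values measure the spread between these libraries, which may be technical in part.

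Of 38406 genes, 15228 passed edgeR's filterByExpr by group and were tested (edgeR 4.0.16, R 4.3.3). The 4 groups entered 1 quasi-likelihood fit with TMM factors (common biological coefficient of variation 0.562, 7 residual degrees of freedom), and the contrast of N1ICD against MYC/Gfi1 was tested, two-sided. P-values were adjusted by Benjamini-Hochberg over all genes tested and called at 0.05. CPM values use the TMM-scaled totals. The SE of a log2 fold change is its size over the square root of F. A gene with 0 counts in a whole group is given a bound against a floor of 3 counts over that group, which covers counting error only. Where an MYC/Gfi1 library was left out, the remaining one was assumed to vary like the other groups.

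The libraries compared, and 44 gene lists, were chosen with earlier results of these data known. The lists hold 1125 symbols, of which 1118 were found in the table, 6 through RefSeq synonyms. They carry no test of their own: each is described by its calls and its median, to be read against the shares called and the median over all genes. Genes were named by a rule: genes in the labels; the 12 largest rises and falls that were called, did not overlap and reached 10 CPM in the higher group; the 10 largest of each also called with each library left out; from each list, up to 5 called members by smallest p and up to 3 others by highest CPM; and promoters of called Notch targets. A selection is printed, and some genes are not reported here. Gene positions come from GENCODE on GRCm38 (mm10) and promoter sequences from RefSeq (GRCm38.p6). Alternatives were RLE and upper-quartile factors, no filter, DESeq2 1.42.0, limma-voom (limma 3.58.1), other sets of libraries, a replicate block, thinned counts and counts without mitochondrial genes. The fitting code was tested on simulated data, where 19% of 4-fold changes and 52% of 8-fold changes were recovered. A gene that was not called is therefore not shown to be unchanged.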

Additional observations from a re-analysis of the deposited data

How the results depend on the processing

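Set against the 1754 calls reported, the counts with RLE factors (1760), upper-quartile factors (1719), no low-count filter (1261), counts thinned to the smallest total (1792) and mitochondrially encoded genes left out (1668) lay within 1.5 times. DESeq2 called 3369 genes and limma-voom 1022, of which 61.9% were higher against 47.5% in the test reported. Without the S100b-cell libraries 890 were called. With the 5 libraries of the comparison fitted alone 15 were called, 26.7% of them higher, among 12317 genes tested; 2580 had an unadjusted p under 0.05. Leaving out 1 library at a time gave 797 to 2214 calls, the lowest without N1ICD replicate 2. The cause of these differences was not tested.

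The groups share replicate numbers 1 and 2. Deviations of same-numbered libraries from their group means correlated at -0.04 and 0.03. The deviations of the 2 MYC/Gfi1 libraries mirror each other, so these values do not settle whether the numbers pair the samples. A fit with the replicate block called 789 genes, 396 higher and 393 lower.

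Among the named genes, 2 changed direction with a call. Hdac2 was at a log2 fold change of -0.23 with all libraries (adjusted p = 0.791) and at 1.35 without MYC/Gfi1 replicate 1 (adjusted p = 0.0210), with a range of -0.97 to 1.35 over the libraries left out. Enpp2 was at 0.89 with all libraries (adjusted p = 0.755) and at -4.62 without N1ICD replicate 1 (adjusted p = 0.0211), with a range of -4.62 to 2.80. No named gene that was called with all libraries reversed under the alternatives run. Of the 274 named genes, 76 were called with all libraries and not without MYC/Gfi1 replicate 2, and 6 were called with edgeR and not with DESeq2. More named genes lost their call under other alternatives: 133 with the 5 libraries of the comparison fitted alone, 67 with limma-voom and 62 with the replicate block. Leaving out the S100b-cell libraries lost 46, N1ICD replicate 2 lost 64 and N1ICD replicate 3 lost 63. The N1ICD libraries are the shallower ones, and thinning all libraries to the smallest total moved the count of calls by less than 1.5 times.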

Other observations

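Few genes of signalling and guidance were called, in shares near those of all genes (5.47% higher and 6.05% lower). Of 25 genes of BMP, Wnt and Shh signalling 0 rose and 2 fell. Bmp7, a bone morphogenetic protein, was at 15.9 and 66.7 CPM in the MYC/Gfi1 libraries and at 2.14, 0.349 and 0.406 CPM in the N1ICD libraries (log2 fold change -5.45 ± 0.81 SE, adjusted p = 0.00644). Cdon, a Shh coreceptor, was at 38.7 and 79.7 CPM against 7.72, 3.14 and 15.0 CPM (adjusted p = 0.0177, or 0.0796 without MYC/Gfi1 replicate 2). Of 33 genes of axon guidance and adhesion 0 rose and 2 (6.06%) fell, near the 6.05% of all genes. Epha5, an ephrin receptor, was at 35.1 and 9.59 CPM against 0.857, 0 and 0.406 CPM (adjusted p = 0.00776), and Robo2, a Slit receptor, was at 62.5 and 23.5 CPM against 1.29, 0.349 and 2.84 CPM (adjusted p = 0.00915). Bmp7, Epha5 and Robo2 were called with each library left out.

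Of 31 genes of receptor tyrosine kinases and growth factors 4 (12.9%) rose and 2 (6.45%) fell, and 0 were called without MYC/Gfi1 replicate 2 or without N1ICD replicate 2. Pdgfrb, the receptor of pericytes, was at 3.26 and 8.13 CPM against 26.6, 200.5 and 92.5 CPM (adjusted p = 0.0321), and Igfbp7, a secreted vascular protein, was at 7.34 and 3.78 CPM against 16.7, 177 and 98.2 CPM (adjusted p = 0.0277). Igf2 was at 86.0 and 5.81 CPM against 210, 780 and 799 CPM and was not called (adjusted p = 0.0977). Of 24 genes of apoptosis 2 (8.33%) rose and 2 (8.33%) fell. Bak1 and Bcl2l11, which promote cell death, were higher (adjusted p = 0.0264 and 0.0462), while Bad, which also promotes it, and Bcl2l1, which opposes it, were lower (adjusted p = 0.0132 and 0.0222). None of these 4 was called without MYC/Gfi1 replicate 2 (adjusted p = 0.0791, 0.0510, 0.0570 and 0.134).

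Of 20 heat shock genes 3 (15.0%) rose and 0 fell, and 0 were called without MYC/Gfi1 replicate 2 or without N1ICD replicate 2. Hspd1, the mitochondrial chaperonin, was at 337 and 200 CPM against 431, 937 and 891 CPM (adjusted p = 0.0354), and its partner Hspe1 was at 129 and 82.6 CPM against 186, 378 and 329 CPM (adjusted p = 0.0284); without MYC/Gfi1 replicate 2 the values of p were 0.168 and 0.137, and that of Hspa8, the other gene called, was 0.0854. Of 22 immediate early genes 0 rose and 2 (9.09%) fell. Dusp1, a phosphatase induced by stress and growth factors, was at 52.5 and 46.0 CPM against 3.43, 6.28 and 4.87 CPM (log2 fold change -3.33 ± 0.51 SE, adjusted p = 0.00682). Eno1, a glycolytic enzyme, was the 1 of 23 hypoxia and glycolysis genes called, at 19.7 and 22.5 CPM against 90.5, 81.2 and 87.2 CPM (log2 fold change 2.03 ± 0.29 SE, adjusted p = 0.00561).

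Some of the largest rises differed widely between the N1ICD libraries, and those of Krt19 and Myocd rested on 2 of them. Sh3bgr was at 531, 18.5 and 145 CPM in the N1ICD libraries against 0.466 and 3.20 CPM (adjusted p = 0.0212), Krt19, a keratin, was at 65.6, 0.697 and 72.6 CPM against 0.350 and 0 CPM (adjusted p = 0.0364), and Myocd, a coactivator of smooth muscle genes, was at 0.429, 76.0 and 45.9 CPM against 0.117 and 0 CPM (adjusted p = 0.0311). Hoxc6, of a gene cluster not expressed in normal cerebellum, was at 0, 13.2 and 10.96 CPM against 0.117 and 0 CPM and was not called (adjusted p = 0.0787). Sh3bgr, Krt19 and Myocd were not called without either MYC/Gfi1 library. Ttr, the choroid plexus gene transthyretin, was at 4672 CPM in N1ICD replicate 1 and at 564 CPM in MYC/Gfi1 replicate 1, against 5.08 CPM or less in the other 3 libraries.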
